A study of Gallus gallus with 10 samples.

Results

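Cadherins, the catenins that tie them to actin, and the proteins of tight junctions and nectin contacts hold epithelial cells together, and 49 of the 12464 genes in the deposited table belong to these families. They were picked by gene symbol (CDH, PCDH, CELSR, FAT, DCHS, CTNNA, CTNNB, CTNND, JUP, CLDN, TJP, OCLN, NECTIN, DSP and PKP genes), with earlier results of these data known. Both retinas of 5 wild-type chicken embryos (Dekalb white, Hamburger and Hamilton stage 23, near day 4 of development) were collected 6 h after surgery (the tissue label is optic cup). In each embryo 1 eye had lost its lens through a slit in the dorsal eyeball (lens removed, LR), and the untouched eye on the other side was the control (Control), which gave 5 LR and 5 Control libraries of polyadenylated RNA. Every Control retina thus came from an embryo that had also been operated on, no eye was opened without loss of its lens, and the effects of opening the eye and of losing the lens cannot be told apart. The embryo number pairs the libraries, so each change below was taken within an embryo. The question was which retinal transcripts respond to the lens as the front of the eye and the size of the eye are set.

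A classical cadherin binds the same cadherin on the next cell with its outer part, and binds beta-catenin or plakoglobin, and p120-catenin, with its tail. Alpha-catenin links that complex to actin. In the optic cup these adherens junctions form a belt at the apical side of the progenitor cells, with N-cadherin as the main cadherin of the neural retina. Nectins help to start such contacts, claudins and occludin form tight junctions on scaffolds of the TJP (ZO) proteins, and the giant cadherins of the CELSR, FAT and DCHS families act in planar polarity and growth control.

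Levels are normalised read counts scaled by the authors to nearly equal totals, and are not divided by transcript length, so they are compared between libraries and not between genes. A difference was called when its adjusted p in limma, fitted to log2(value + 1) within embryos over all 9076 genes with a mean of at least 10, was under 0.05. Of the 49 genes, 34 passed that minimum and were tested. Among them 4 were higher in LR (JUP, FAT3, PCDH19 and CDH2) and 6 lower (PCDH1, CDH11, PCDH11X, CDH12 and NECTIN3 among them). That is 29.4% of the 34, against 22.9% of all tested genes (10.6% higher and 12.3% lower), so the share of changed genes was near that of the table as a whole. Their median log2 change was 0.06 (-0.001 over all tested genes) and the median size of a change 0.19 (0.14 over all tested genes). The counts moved with single embryos: without embryo 1 there were 7 higher and 7 lower, without embryo 2 there were 1 and 3, without embryo 3 there were 2 and 6, without embryo 4 there were 1 and 5, and without embryo 5 there were 2 and 5. The counts of all tested genes moved as well. They were 963 higher and 1112 lower with all embryos, 1378 and 1468 without embryo 1, and 387 and 301 without embryo 4. Both were also lower without embryo 2, 3 or 5 than with all embryos. Calls gained or lost below on leaving out an embryo thus need not be particular to these genes. With no replicate block 2 of the 34 were higher and 5 lower. In 3 of the 34 genes (CDH12 and PCDH11X among them) every LR library lay below every Control library, which held for 7.27% of all tested genes; the opposite held for 0 of the 34 and for 6.41% of all tested genes. The within-embryo change had 1 sign in all 5 embryos for 9 of the 34 genes (26.5%), against 31.9% of all tested genes.

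**Figure D1:**
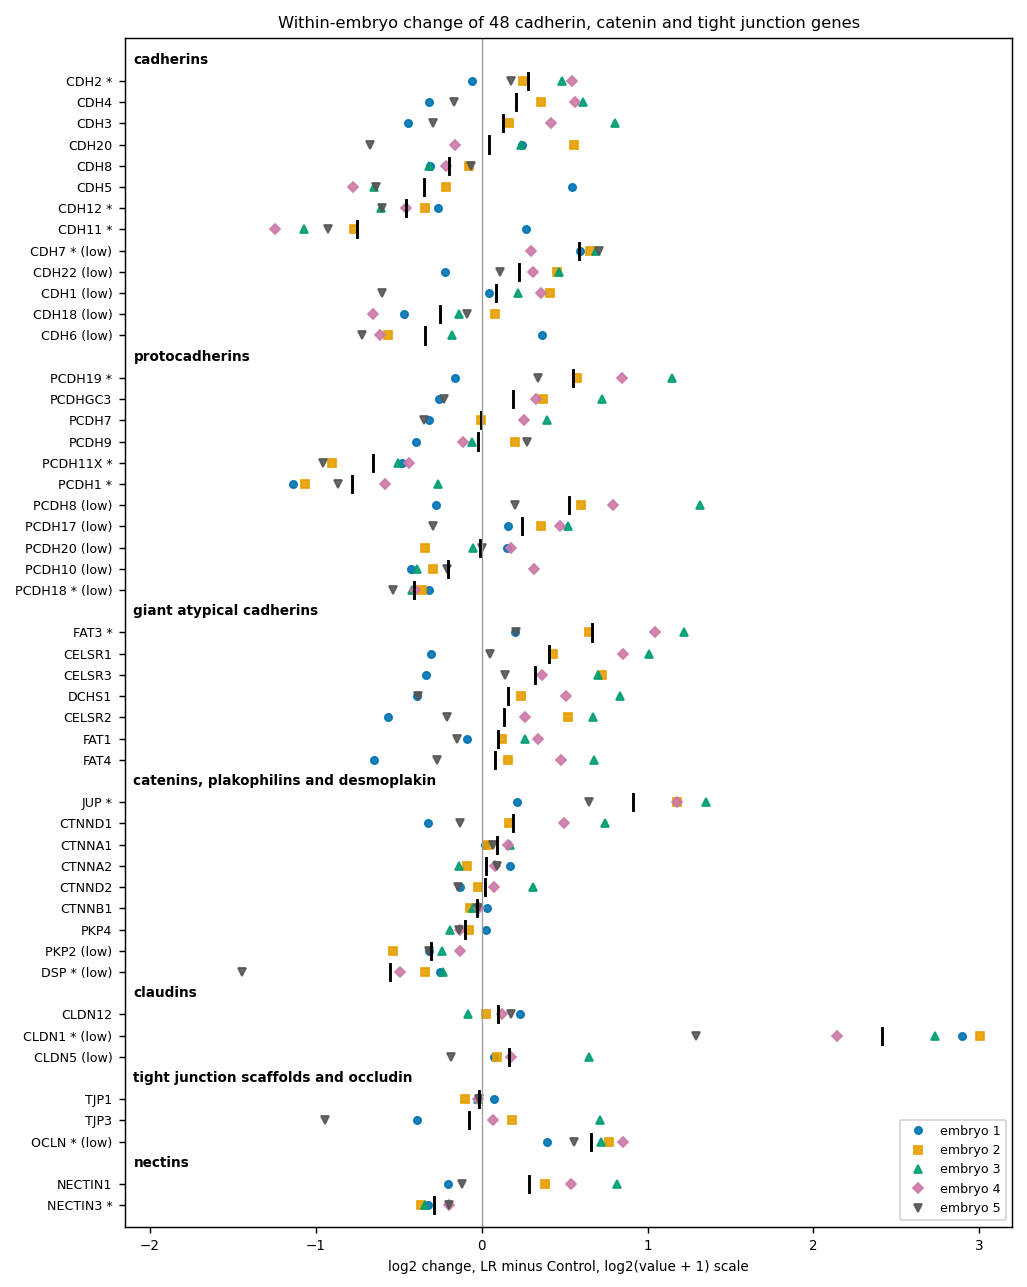
Within-embryo log2 change (LR minus Control, log2(value + 1) scale) of 48 genes by family; symbols are the 5 embryos, black bars the fitted change, asterisks mark adjusted p under 0.05, and genes marked low have a mean under 10 and their fit from all 12464 genes. Beta-catenin and TJP1 sit near 0 in every embryo, while CLDN1 lies to the right in all 5.

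Effective library sizes, as read from the spacing of low values, were about 18672000 to 26006000 reads. The 34 tested genes rested on at least 116 reads in every library. The retinal markers RAX, PAX6, SIX3, SIX6 and LHX2 were all present, with a summed level of 932 to 1022 in LR and 854 to 1089 in Control. Of the 5, RAX was higher (66.4 ± 14.5 in LR and 39.99 ± 10.6 in Control, log2 change 0.73, limma adjusted p = 0.0031) and PAX6 lower (272 ± 16.5 in LR and 357 ± 34.2 in Control, log2 change -0.39, adjusted p = 0.0061), both without overlap. Markers of neighbouring tissues were present as well. The summed level of 11 pigment epithelium genes was 325 to 409 in LR and 358 to 833 in Control, that of 8 periocular mesenchyme genes 61.7 to 87.0 in LR and 54.0 to 192 in Control, and that of 5 red cell genes 111 to 319 in LR and 30.03 to 378 in Control. The ranges overlapped in all 3 lists. Among the tested genes 2 of 7 pigment genes and 1 of 3 mesenchyme genes were lower in LR, and none of the 5 red cell genes passed (adjusted p of 0.071 to 0.15). In the limma fit of all 12464 genes 6 of the 11 pigment genes and 3 of the 8 mesenchyme genes passed, all lower. The pigment genes added there were TYRP1 (log2 change -0.89, adjusted p = 0.0037), SLC45A2 (-0.75, 0.0031), MLANA (-1.20, 0.021) and OCA2 (-1.03, 0.016). All have a mean under 10, and 4.69% of such genes were lower in that fit. The Control library of embryo 5 was the highest Control in all 3 lists. Fewer cells of a type and less RNA per cell cannot be told apart in such bulk samples.

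Among the classical cadherins, CDH2, which encodes N-cadherin, was higher in LR. It was at 542, 593, 623, 656 and 688 in the LR retinas of embryos 1 to 5, against 565, 499, 445, 449 and 608 in the Control retinas. Embryo 1 went the other way from the other 4, and the groups overlapped. The log2 change was 0.28 (SE 0.087, limma adjusted p = 0.048), a call close to the threshold: it was lost after rescaling by trimmed means (adjusted p = 0.054), with no replicate block (0.073), and without embryo 2 (0.13), 3 (0.11), 4 (0.19) or 5 (0.077). Without embryo 1 the log2 change of CDH2 was 0.36 (adjusted p = 0.0081). CDH4, or R-cadherin, a close relative expressed in retina, averaged 34.1 ± 5.08 in LR and 29.6 ± 6.56 in Control (SD, n = 5 each) and did not pass (log2 change 0.21, adjusted p = 0.31). CDH3, or P-cadherin, known from pigment epithelium and surface epithelia, was at 31.2, 43.6, 61.5, 49.5 and 65.5 in LR, against 42.7, 38.8, 34.7, 36.9 and 80.6 in Control (log2 change 0.13, adjusted p = 0.59). Its Control library of embryo 5 stood far above the other 4, as did the pigment marker sum of that library (833, against 358 to 539 in the other Controls). CDH1, the E-cadherin gene that lies next to CDH3 in the RefSeq annotation of GRCg7b, was low but present in every library, with 31.2 to 51.0 reads in LR and 23.3 to 87.5 in Control.

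Type II cadherins mediate sorting of neuron groups and of mesenchyme, and the 2 called among those with a mean of at least 10 were lower. CDH11, a cadherin of mesenchymal cells, was lower in LR at 31.6, 21.6, 24.3, 19.5 and 26.1, against 26.1, 37.6, 52.04, 47.7 and 50.5 in Control. It fell in embryos 2 to 5 and was higher in embryo 1, so that the groups overlapped. The log2 change was -0.75 (SE 0.19, limma adjusted p = 0.022), and the call was lost without embryo 2 (0.071), 4 (0.10) or 5 (0.064). The summed level of the 8 mesenchyme genes had the same signs: in embryo 1 it was 64.4 in LR and 54.0 in Control, and in embryo 5 it was 84.8 in LR and 192 in Control. LUM, a proteoglycan gene of the stroma, averaged 7.06 ± 1.81 in LR and 17.6 ± 8.07 in Control (log2 change -1.12, adjusted p = 0.014). COL1A2, a collagen gene and the one with the most reads in the list, averaged 33.7 ± 10.3 in LR and 32.7 ± 24.1 in Control and did not pass, with higher values in LR in 4 of 5 embryos (log2 change 0.21, adjusted p = 0.46). COL3A1 did not pass either (log2 change -0.29, adjusted p = 0.23). In the fit of all 12464 genes 3 of the 8 passed, all lower in LR: LUM, KERA and PDGFRA. KERA (log2 change -1.39, limma adjusted p = 0.0064) and PDGFRA (-0.52, 0.019) were lower in 5 of 5 embryos, embryo 1 among them. Both have a mean under 10, and 4.69% of such genes were lower in that fit. LUM was among the tested genes, of which 12.3% were lower. Of the 8 genes 3 (LUM, COL3A1 and DCN) had the signs of CDH11 in every embryo. So did 4 of the 11 pigment epithelium genes (MITF, TYR, MLANA and OCA2). The mitochondrial COX1 transcript and the summed level of 67 ribosomal protein genes had these signs too. Of all tested genes 16.3% had embryo 1 opposite in sign to the other 4, in either direction. The share in the direction of CDH11 alone was not counted. The parts of mesenchyme and pigment epithelium in the change of CDH11 were not tested.

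CDH12, a cadherin of the nervous system, was lower in LR in 5 of 5 embryos. It was at 21.7, 24.8, 20.2, 18.6 and 17.4 in LR, against 26.2, 31.6, 31.4, 25.97 and 26.8 in Control, and no LR library reached the lowest Control. Its log2 change was -0.45 (SE 0.080, limma adjusted p = 0.0057) and passed in every alternative that tested it, with adjusted p up to 0.035. CDH8, another cadherin of the nervous system, had the same sign in 5 of 5 embryos but did not pass (33.5 ± 4.39 in LR and 38.4 ± 2.13 in Control, log2 change -0.20, adjusted p = 0.072). CDH20 was at 14.9, 21.4, 15.1, 8.12 and 6.21 in LR, against 12.4, 14.2, 12.6, 9.18 and 10.5 in Control, with no call (log2 change 0.04, adjusted p = 0.87).

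CDH5, the VE-cadherin gene of blood vessels, was at 10.5, 7.37, 10.7, 7.15 and 11.6 in LR, against 6.92, 8.73, 17.3, 12.96 and 18.5 in Control. It was lower in embryos 2 to 5 and higher in embryo 1, and did not pass with all embryos (log2 change -0.35, limma adjusted p = 0.19); without embryo 1 its log2 change was -0.57 (adjusted p = 0.0096). The signs of CDH5 were those of CDH11 and of 4 of the 11 pigment epithelium genes. Embryo 1 was opposite in sign to the other 4, in either direction, in 16.3% of all tested genes. Of the 9 other vessel genes 3 (FLI1, ERG and TIE1) had the signs of CDH5 in every embryo, and 6 did not. Those with the most reads were PECAM1, at 37.96 ± 11.3 in LR and 38.7 ± 15.1 in Control (log2 change 0.0009), and the receptor gene KDR, at 19.1 ± 2 in LR and 18.1 ± 1.61 in Control (log2 change 0.07, adjusted p = 0.55). FLI1 averaged 2.16 ± 0.575 in LR and 4.63 ± 1.83 in Control (log2 change -0.78). EGFL7 averaged 2.94 ± 0.479 in LR and 2.42 ± 0.893 in Control (log2 change 0.24). In the fit of all 12464 genes 3 vessel genes passed, all lower: FLI1 (limma adjusted p = 0.018), ERG (0.031) and TIE1 (0.036). These 3 have a mean under 10, and 4.69% of such genes were lower there. EGFL7 did not pass there (0.32). The summed level of 10 vessel genes, CDH5 and CLDN5 among them, was 64.4 to 95.2 in LR and 62.5 to 119.98 in Control, with 0 of the 10 listed at 0 in any library, and its part in the values of CDH5 was not tested. CDH5, CDH11 and CDH8 follow each other with 0 protein-coding genes between them in the RefSeq annotation of GRCg7b. Their log2 changes were -0.35, -0.75 and -0.20, and only that of CDH11 passed. In embryo 1 CDH5 and CDH11 were higher in LR and CDH8 was lower.

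**Figure D2:**
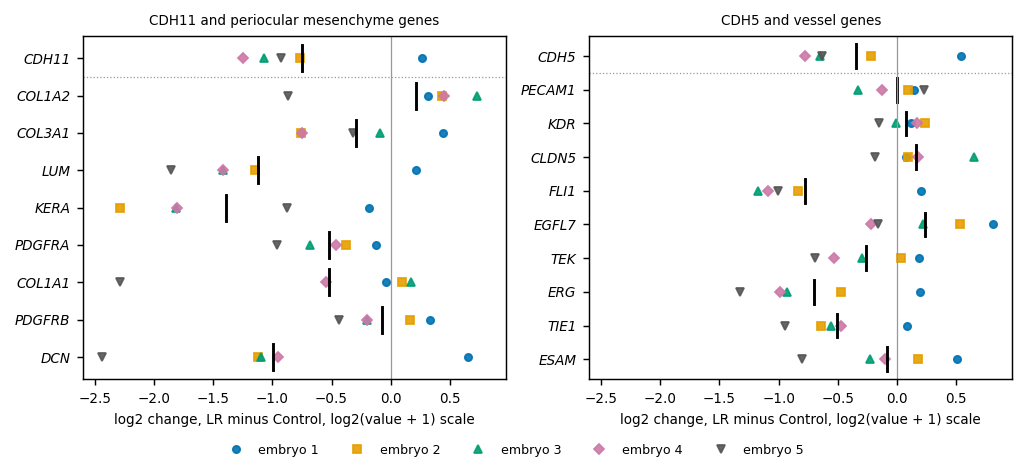
Within-embryo log2 change (LR minus Control, log2(value + 1) scale) of CDH11 above the 8 mesenchyme genes and of CDH5 above the 9 other vessel genes, each list from the highest to the lowest mean level; symbols are the 5 embryos and black bars the change fitted over all 12464 genes. CDH11 and CDH5 lie right of 0 in embryo 1 and left of it in the other 4, as do 3 of the 8 mesenchyme genes and 3 of the 9 vessel genes. Of all tested genes 16.3% have embryo 1 opposite in sign to the other 4, in either direction.

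Among the catenins and their relatives with a mean of at least 10, JUP alone passed the test. JUP, which encodes plakoglobin, the relative of beta-catenin that serves adherens junctions and desmosomes, was at 75.1, 129, 131, 120.3 and 129 in LR, against 64.5, 56.4, 50.8, 52.5 and 81.97 in Control. In embryos 2 to 5 each LR value exceeded every Control value, and only the LR library of embryo 1 lay within the Control range. The ratio of the means was 1.91 and the log2 change 0.92 (SE 0.15, limma adjusted p = 0.0043), between 0.81 and 1.09 over the alternatives. CTNNB1, the beta-catenin gene, was at 732, 698, 753, 743 and 715 in LR, against 716, 733, 782, 751 and 727 in Control. Its log2 change was -0.03 (SE 0.049, adjusted p = 0.72), with both groups within 698 to 782. The change of JUP exceeded that of CTNNB1 in 5 of 5 embryos; the smallest gap was in embryo 1 (0.22 against 0.03).

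CTNNA1, which encodes the widely expressed alpha-catenin, averaged 299 ± 17.1 in LR and 281 ± 12.5 in Control (log2 change 0.09, limma adjusted p = 0.23), and its neural form CTNNA2 88.6 ± 3.51 in LR and 87.1 ± 4.82 in Control (log2 change 0.02, adjusted p = 0.81). CTNND1, or p120-catenin, which keeps cadherins at the membrane, spread more, at 93.9, 129, 143, 137 and 156 in LR, against 118, 115, 84.8, 96.9 and 171 in Control (log2 change 0.19, adjusted p = 0.34). It was lower in LR in embryos 1 and 5 and higher in embryos 2 to 4. CTNND2, its neural relative, and PKP4, a plakophilin relative of p120, had log2 changes of 0.02 and -0.10 and did not pass (adjusted p = 0.88 and 0.20).

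**Figure D3:**
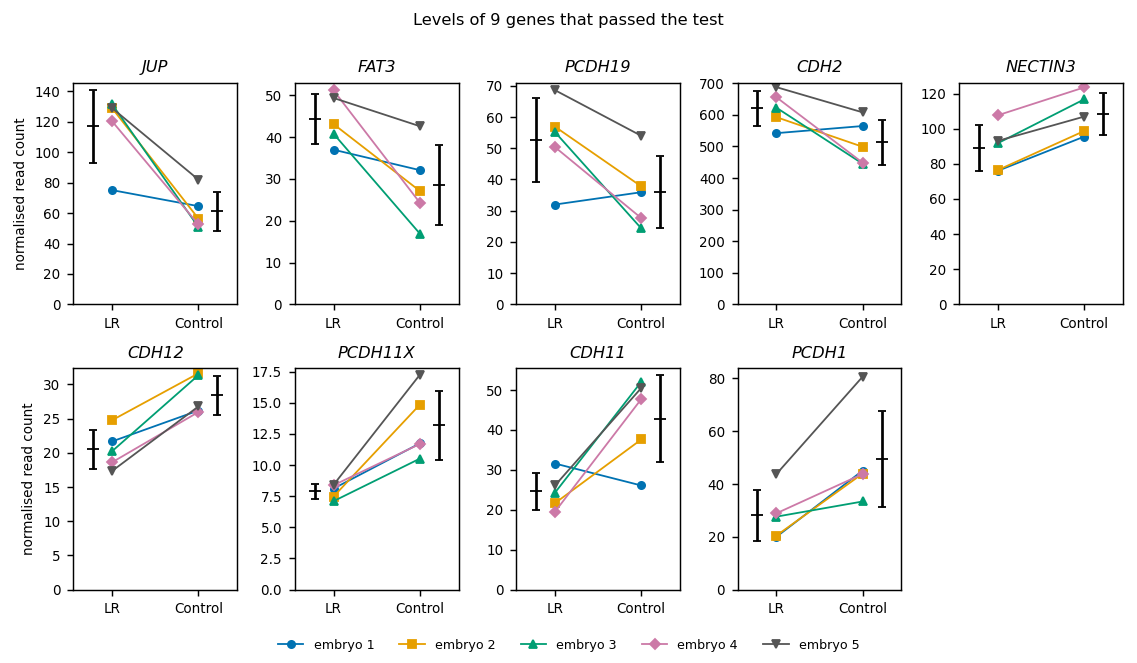
Normalised read counts of 9 genes that passed the test, from the highest to the lowest log2 change; each line joins the LR and Control retina of 1 embryo, and black marks give mean ± SD (n = 5 each). For CDH12 and PCDH11X the LR values all lie below the Control values, and embryo 1 departs from the other embryos for CDH2, PCDH19 and CDH11.

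Of 7 giant cadherins 1 was called. FAT3, which in mice shapes the processes of amacrine cells, was higher in LR in 5 of 5 embryos, at 36.97, 43.1, 40.8, 51.1 and 49.3, against 32.1, 27.1, 16.9, 24.3 and 42.6 in Control. The groups overlapped because the Control of embryo 5 was above 2 of the LR libraries. Its log2 change was 0.66 (SE 0.15, limma adjusted p = 0.016), and it missed the threshold without embryo 2 (0.056) or 4 (0.083). FAT1, the most abundant of the giant cadherins by read count, was at 482, 544, 594, 618 and 590.2 in LR, against 513, 499, 495, 488 and 655 in Control (log2 change 0.10, adjusted p = 0.40). FAT4 and DCHS1, which bind each other across cells, had log2 changes of 0.08 and 0.16 (adjusted p = 0.76 and 0.53); both were lower in LR in embryos 1 and 5 and higher in the other 3.

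The CELSR genes, vertebrate counterparts of the fly planar polarity cadherin Flamingo, were not called with all 5 embryos. CELSR1 was at 174, 218, 245, 259 and 272 in LR, against 215, 161, 121, 143 and 262 in Control, higher in embryos 2 to 5 and lower in embryo 1. Its log2 change of 0.41 did not pass (limma adjusted p = 0.11), whereas without embryo 1 it was 0.59 (adjusted p = 0.017). CELSR3 behaved alike, with 0.32 (adjusted p = 0.15) over all embryos and 0.48 (0.015) without embryo 1. CELSR2 had a log2 change of 0.14 (adjusted p = 0.57), and of 0.31 (0.11) without embryo 1.

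Protocadherins, which bind weakly and act in sorting and in neuron wiring, moved in both directions. PCDH1 was lower in LR at 19.98, 20.4, 27.6, 28.9 and 43.8, against 45.1, 43.95, 33.4, 43.8 and 80.7 in Control, with the same sign in 5 of 5 embryos. The log2 change was -0.78 (SE 0.12, limma adjusted p = 0.0036), the lowest among the tested genes of these families, and passed in every alternative that tested it (adjusted p up to 0.047). The LR library of embryo 5 was about as high as the Controls of embryos 1, 2 and 4, and its own Control was far above all others.

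PCDH11X was at 8.11, 7.47, 7.10, 8.37 and 8.41 in LR, against 11.7, 14.8, 10.5, 11.7 and 17.2 in Control, so the LR values were close together and all below the Controls. Its log2 change was -0.66 (SE 0.11, limma adjusted p = 0.0048), with adjusted p up to 0.028 over the alternatives. PCDH19, which forms complexes with N-cadherin in zebrafish, was higher in LR at 31.97, 56.9, 55.2, 50.4 and 68.6, against 35.9, 37.8, 24.3, 27.6 and 53.99 in Control, although not in embryo 1. Its log2 change was 0.55 (SE 0.16, adjusted p = 0.038), and between 0.40 and 0.73 over the alternatives. The call held without embryo 1. It was lost with no replicate block (0.12) and without embryo 2 (0.11), 3 (0.069), 4 (0.15) or 5 (0.061). PCDH19 and PCDH11X have 1 protein-coding gene between them in GRCg7b and changed in opposite directions.

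PCDHGC3, from the gamma cluster, was at 65.5, 85.2, 89.8, 84.9 and 96.5 in LR, against 78.6, 65.8, 53.9, 67.4 and 113 in Control (log2 change 0.19, limma adjusted p = 0.34). Genes of this cluster share their last exons, so reads may belong to other members, and the value is uncertain. PCDH7 and PCDH9 averaged 34.3 ± 5.19 and 13.3 ± 2.25 in LR and 34.9 ± 9.15 and 13.4 ± 0.742 in Control, with log2 changes of -0.0048 and -0.02 (adjusted p = 0.98 and 0.92).

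The 2 nectin genes, whose proteins bind each other in pairs and recruit afadin, had changes of opposite sign. NECTIN3 was lower in LR in 5 of 5 embryos, at 76.02, 76.5, 91.7, 108 and 93.1, against 95.5, 98.7, 117, 124 and 107 in Control. The log2 change was -0.29 (SE 0.057, limma adjusted p = 0.0094), but the groups overlapped, and the call was lost with no replicate block (0.089) and without embryo 2 (0.058). NECTIN1 was at 80.6, 116, 129.9, 114 and 154 in LR, against 92.8, 88.8, 73.3, 77.99 and 167 in Control, with no call (log2 change 0.28, adjusted p = 0.17); without embryo 1 its log2 change was 0.41 (adjusted p = 0.048). The difference between the 2 genes was not tested.

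TJP1, or ZO-1, a scaffold under the tight junction, did not pass. It was at 335, 320.0, 337, 309 and 321 in LR, against 317, 343, 342, 314 and 324 in Control (log2 change -0.02, adjusted p = 0.85). TJP3 was at 8.15, 12.1, 11.97, 8.04 and 11.2 in LR, against 11.02, 10.6, 6.89, 7.60 and 22.6 in Control, where the Control of embryo 5 stood apart, and did not pass (log2 change -0.07, adjusted p = 0.82). CLDN12, the only claudin with a mean of at least 10, averaged 39.9 ± 2.40 in LR and 37.3 ± 2.97 in Control (log2 change 0.10, adjusted p = 0.34).

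Of the 49 genes, 15 had a mean under 10 and were fitted only together with all 12464 genes. In that fit 3 were higher in LR (CLDN1, OCLN and CDH7) and 2 lower (DSP and PCDH18), which is 33.3% of the 15. Among all 3388 genes with a mean under 10, 18.6% were called (13.9% higher and 4.69% lower). The LR values of CLDN1 and OCLN all lay above the Controls, as in 8.00% of these genes, and those of DSP and PCDH18 all below, as in 2.21%.

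CLDN1 encodes a claudin that seals epithelial barriers such as that of the skin. It was at 6.74, 7.96, 7.06, 3.81 and 7.82 in LR, against 0.0422, 0.115, 0.210, 0.0879 and 2.60 in Control. In reads this was 158, 204, 168, 90 and 146 in LR, against 1, 3, 5, 2 and 62 in Control. The gene was thus close to undetected in 4 of 5 Control retinas and present in every LR retina. The log2 change was 2.41 (SE 0.23, limma adjusted p = 0.00020), a size that depends on the pseudocount (3.05 with 0.5 and 1.06 with 5); it also passed when any 1 embryo was left out. The red cell marker sum was also high in the LR libraries and in the Control of embryo 5 (234, 150, 319, 111 and 131 in LR, against 30.03, 44.2, 49.2, 51.7 and 378 in Control). The part of red cells in the values of CLDN1 was not tested.

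OCLN, the occludin gene, was higher in LR at 5.59, 6.08, 7.14, 5.79 and 8.14, against 4.01, 3.15, 3.95, 2.77 and 5.20 in Control. Its log2 change was 0.66 (SE 0.10, limma adjusted p = 0.0029), with the same sign in 5 of 5 embryos and 131 to 170 reads in LR, against 63 to 124 in Control. CLDN5, the claudin of blood vessels, was at 4.90 ± 0.685 in LR and 4.28 ± 0.724 in Control (log2 change 0.16, adjusted p = 0.38). CDH7, a cadherin of migrating neural crest cells in chick, was higher in LR at 6.10, 5.66, 5.04, 4.02 and 3.37, against 3.71, 3.23, 2.74, 3.08 and 1.68 in Control (log2 change 0.59, SE 0.10, adjusted p = 0.0049).

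The desmosome gene DSP, which encodes the desmoplakin that anchors keratin, was lower in LR at 3.24, 3.28, 3.86, 2.71 and 3.91, against 4.05, 4.42, 4.71, 4.22 and 12.4 in Control. The Control of embryo 5 was well above the other 4, and the log2 change of -0.55 (SE 0.17, limma adjusted p = 0.048) was -0.33 without that embryo (adjusted p = 0.066). It also missed the threshold with a pseudocount of 5 (0.064), with no replicate block (0.15) and without embryo 2 (0.092) or 4 (0.13). The summed level of 5 surface ectoderm genes, CDH1 among them, was 26.7 to 34.5 in LR and 29.4 to 48.8 in Control, highest in the same library. Of the 5, the keratin gene KRT19 alone passed in the fit of all 12464 genes. It averaged 3.77 ± 1.48 in LR and 8.53 ± 3.13 in Control (log2 change -0.99, limma adjusted p = 0.00034). Its mean was under 10, and 4.69% of such genes were lower in that fit. The part of surface ectoderm in the value of DSP was not tested. PCDH18 was lower in LR at 5.72, 6.01, 5.08, 5.20 and 6.16, against 7.39, 7.998, 7.15, 7.21 and 9.36 in Control (log2 change -0.41, SE 0.090, adjusted p = 0.013, and 0.052 and 0.060 without embryos 2 and 4). PKP2, a desmosomal plakophilin, was lower in 5 of 5 embryos at 5.34 ± 1.14 in LR and 6.85 ± 1.35 in Control and did not pass (log2 change -0.31, adjusted p = 0.050), though it did with a pseudocount of 5 (0.042), after rescaling by trimmed means (0.041) and after quantile normalisation (0.019).

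The other low genes were PCDH8, PCDH17, PCDH10, PCDH20, CDH6, CDH18 and CDH22, with log2 changes between -0.34 (CDH6) and 0.53 (PCDH8). None of these 7 passed with all embryos. PCDH8 was at 5.55, 8.43, 11.2, 8.71 and 12.5 in LR, against 6.92, 5.23, 3.91, 4.61 and 10.8 in Control, and passed without embryo 1 (limma adjusted p = 0.013), as did CDH6 (0.018); PCDH17 passed without embryo 5 (0.040).

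**Figure D4:**
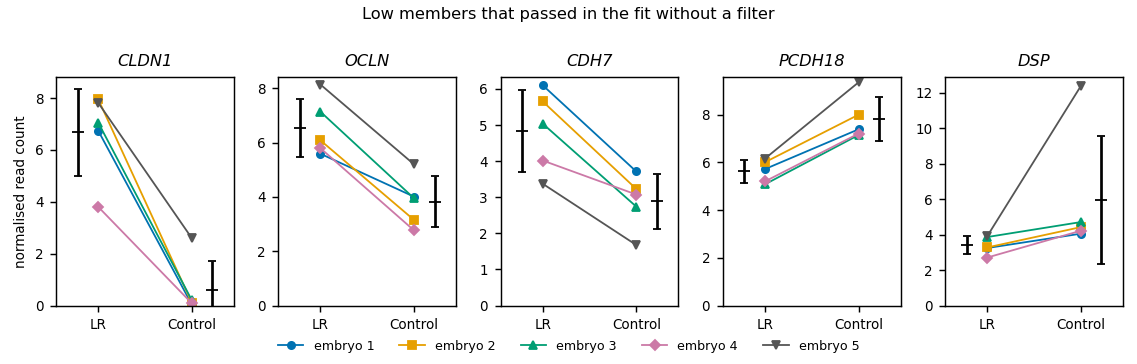
Normalised read counts of the 5 genes with a mean under 10 that passed in the fit of all 12464 genes; each line joins the LR and Control retina of 1 embryo, and black marks give mean ± SD (n = 5 each). CLDN1 is near 0 in 4 Controls and between 3.81 and 7.96 in all LR retinas.

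Many of these genes shared an order of embryos that was noticed after their values were seen. The change was lowest in embryo 1 for 17 of the 34 tested genes (50%, against 26.9% of all tested genes) and highest in embryo 3 for 17 (50%, against 25.7%). Both held for 14 of them (41.2%, against 17.3%): CDH3, CDH4, CELSR1, CELSR2, CTNNA1, CTNND1, DCHS1, FAT3, FAT4, JUP, NECTIN1, PCDH1, PCDH19 and PCDHGC3. In 9 of the 34 genes (26.5%, against 16.3%) embryo 1 had the opposite sign to the other 4, in either direction. Embryo 1 was the lower one for CDH2, CELSR1, CELSR3 and PCDH19. It was the higher one, against the order above, for CDH11, CDH5, CTNNB1, PKP4 and TJP1.

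The levels behind these changes are the same values and give no separate evidence of the order. The Control of embryo 3 was the lowest Control for 19 of the 34 genes (55.9%, against 24.5% of all tested genes). Among the LR libraries, that of embryo 1 was the lowest for 21 genes (61.8%, against 28.8%). Apart from that order, the Control of embryo 5 was the highest Control for 22 genes (64.7%, against 33.3%). The genes share the same 10 libraries and are not separate observations, so these shares were not tested. FAT4 was at 80.3, 131, 161, 149 and 143 in LR, against 126, 117, 100.4, 107 and 173 in Control, and DCHS1 at 16.03, 25.9, 29.9, 26.1 and 29.9 in LR, against 21.3, 21.8, 16.4, 18.04 and 39.3 in Control. The level of the mitochondrial COX1 transcript, the most abundant of the table, was highest in embryo 3 and lowest in embryo 5 in both groups (34327 and 23408 in LR, 38061 and 27146 in Control). Within embryos, COX1 was higher in LR in embryo 1 (32343, against 28706 in Control) and lower in every other embryo. The summed level of 67 ribosomal protein genes had the same signs. It was 51788 in LR and 49304 in Control in embryo 1, and 43775 and 53010 in embryo 4. What these libraries have in common was not tested.

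**Figure D5:**
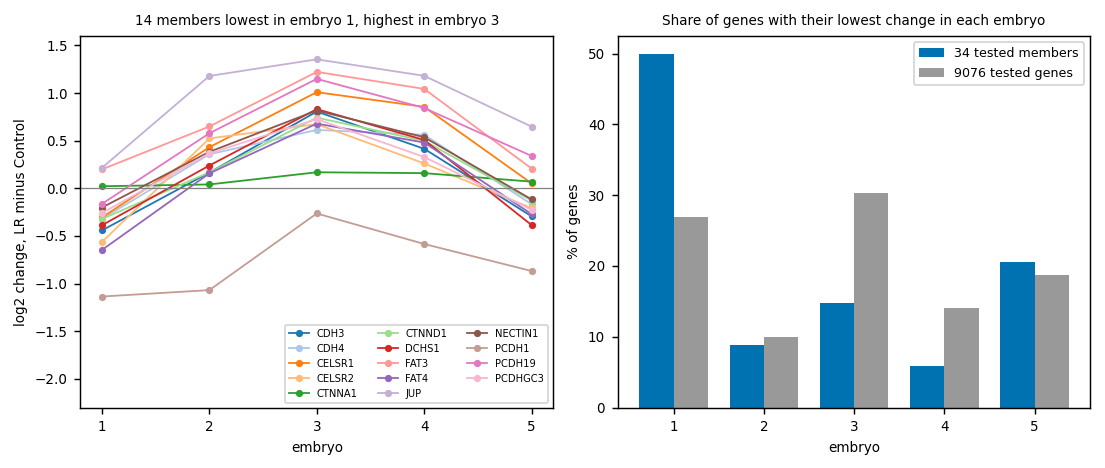
Left, log2 change (LR minus Control) in each embryo of the 14 genes with their lowest change in embryo 1 and their highest in embryo 3, with lines that only join the values of 1 gene; right, the share of genes with their lowest change in each embryo, for the 34 tested genes of these families and for all 9076 tested genes. Embryo 1 gives the lowest change for 50% of the 34 genes and for 26.9% of all.

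Partner genes outside these families were taken from 5 lists, to be read against 10.6% higher, 12.3% lower and a median log2 change of -0.001 among all tested genes. Of 20 tested junction partners 4 were higher and 0 lower, with a median log2 change of -0.002. CTNNAL1, a relative of alpha-catenin, was at 748, 712, 590.1, 576 and 547 in LR, against 481, 444, 429.5, 363 and 317 in Control, with no overlap (log2 change 0.65, limma adjusted p = 0.00027). ZYX, or zyxin, which gathers at actin under tension, averaged 63.3 ± 7.31 in LR and 31.4 ± 9.96 in Control (log2 change 1.03, adjusted p = 0.0031). AFDN, or afadin, the nectin anchor, averaged 217 ± 22 in LR and 164 ± 21.9 in Control (log2 change 0.40, adjusted p = 0.011, and 0.063 without embryo 4), and MAGI1, a scaffold of cell junctions, 149.9 ± 11.6 in LR and 113 ± 20.96 in Control (log2 change 0.42, adjusted p = 0.033, and 0.12, 0.066 and 0.14 without embryos 2, 3 and 4).

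Among 24 tested genes of apical and basal polarity complexes 2 were higher and 0 lower (median log2 change 0.06). CRB1, an apical polarity gene of the retina, averaged 75.8 ± 11.7 in LR and 50.98 ± 7.44 in Control without overlap (log2 change 0.56, limma adjusted p = 0.0067). NUMB, an endocytic adaptor, had a log2 change of 0.37 (adjusted p = 0.035; 0.065 with no replicate block, and 0.10, 0.073 and 0.15 without embryos 2, 3 and 4). Of 11 planar polarity genes 1 was higher and 1 lower (median 0.07). DVL1, which encodes the Wnt signal adaptor dishevelled, averaged 146 ± 16.8 in LR and 98.4 ± 10.4 in Control without overlap (log2 change 0.56, adjusted p = 0.00070), and the Wnt co-receptor RYK 48.7 ± 3.05 in LR and 58.5 ± 4.91 in Control (log2 change -0.26, adjusted p = 0.027; 0.12, 0.068 and 0.13 without embryos 2, 3 and 4).

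Regulators and proteases of cadherins gave 7 higher and 0 lower of 19 tested (median log2 change 0.17). ZEB1, which represses E-cadherin, averaged 137 ± 14.96 in LR and 105 ± 5.56 in Control without overlap (log2 change 0.38, limma adjusted p = 0.0063). The protease gene PCSK5 had a log2 change of 0.43 (adjusted p = 0.0044), the receptor phosphatase PTPRF 0.92 (0.0065) and the Rap activator RAPGEF1 0.66 (0.026; 0.053 with no replicate block, 0.089 and 0.10 without embryos 2 and 4). The cadherin repressors SNAI1 and SNAI2, named here after their values were seen, lay under the tested level: SNAI1 averaged 2.45 ± 0.291 in LR and 1.21 ± 0.177 in Control, and SNAI2 2.47 ± 0.476 in LR and 6.57 ± 4.01 in Control. In the fit of all 12464 genes SNAI1 was higher (log2 change 0.64, limma adjusted p = 0.0054) and SNAI2 lower (-0.99, 0.012). The protease gene PCSK6 was higher there as well (0.59, 0.0063). In embryo 1 SNAI2 was at 2.90 in LR and 2.91 in Control. Its Control of embryo 5 was at 13.05, against 2.91 to 7.23 in the other Controls. That fit called 9 of the 23 listed genes higher and 1 lower, and the 9 include the 7 called among the 19 tested genes. The listed genes with a mean under 10 were SNAI1, SNAI2, PCSK6 and PTPRM, of which PTPRM did not pass. Only these compare with all genes with a mean under 10, of which that fit called 13.9% higher and 4.69% lower. Of 6 nectin-like and JAM genes 2 were higher and 0 lower (median -0.03): CADM1, at 337 ± 32.8 in LR and 259.6 ± 29.9 in Control (log2 change 0.38, adjusted p = 0.018; 0.073 and 0.089 without embryos 2 and 4), and CADM2, at 32.2 ± 3.80 in LR and 25.6 ± 4.52 in Control (log2 change 0.33, adjusted p = 0.048). The CADM2 call was lost after rescaling by trimmed means (0.059) and quantile normalisation (0.081), with no replicate block (0.094), and without embryo 2 (0.11), 4 (0.17) or 5 (0.10).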

How the data were processed

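Per the labels' protocols, each retina was stored singly and RNA was extracted with TRIzol and columns, then made into stranded polyA libraries and read as 75 bp paired ends. The values are normalised counts, a signal deposited by the authors with column totals of 979286 to 1033235. Names given in the submitters' processing notes, without roles, are the build GRCg6a and the tools HISAT2 (2.1.0), Trim Galore (0.6.4), SAMtools (1.9), FastQC (0.11.8), Subread (1.6.2) and featureCounts; the scaling, annotation and strand setting are not given in the sources used here. Groups and pairs came from the titles. Low values were spaced by the worth of 1 read, yet only 89.8% to 91.6% of values up to 400 reads were whole within 0.01 of a read, so no count model was used.

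P-values are two-sided, from limma 3.58.1 (R 4.3.3) with an intensity trend and an embryo term, adjusted after Benjamini and Hochberg over the 9076 genes tested. The code was tested on simulated data. Adding 1 before the log shrinks the changes of low genes. Nothing in the labels besides the embryo marks a batch. With the embryo term, p-values rest on how the LR minus Control change varies between these 5 embryos. The variance of each gene is moderated with those of all genes in the fit. The pairing comes from the titles: over genes, the deviations of an embryo's LR and Control libraries from their group means correlated at 0.31, 0.76, 0.45, 0.68 and 0.59 in embryos 1 to 5. Every gene of the families that passed was named, with the tested gene of highest mean in each family and up to 4 passing genes of each partner list; a few genes are not reported here, of which 1 of the families stays in the counts and the others were left out of the lists. Members and lists were chosen with earlier results of these data known. All 49 symbols matched RefSeq (GRCg7b), which served for gene order only.

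Each result was recomputed with a pseudocount of 0.5 or 5, without a filter, with a minimum mean of 50, after trimmed-mean rescaling or quantile normalisation, with a robust prior, without the replicate block and without each embryo; repeats for genes with a mean under 10 were added after seeing the data. Tables and figures used Python 3.11.15 (pandas 2.3.3, numpy 2.4.6, matplotlib 3.10.9).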

Additional observations from a re-analysis of the deposited data

Results flagged for a closer look

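By chance a library stands apart in about 1 in 20 independent sets of 5 values. The 98 sets here (49 genes in 2 groups) share the same 10 libraries, so their number cannot be set against that rate. In 15 of the 98 a library stood apart from the other 4. In 11 of the 15 this was the Control of embryo 5, as the highest of the Controls. There CDH3 was at 80.6 (the other Controls reached 42.7), NECTIN1 at 167 (92.8), PCDH1 at 80.7 (45.1), FAT1 at 655 (513), CTNND2 at 102 (86.3), PCDH7 at 50.6 (33.0), DCHS1 at 39.3 (21.8), TJP3 at 22.6 (11.02), DSP at 12.4 (4.71) and CDH1 at 3.67 (1.46). CLDN1 was at 2.60 in the same library, against at most 0.21 in the other Controls. The marker sums of pigment epithelium, mesenchyme and red cells were also highest there among the Controls (833, 192 and 378), and their part in these values was not tested.

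The LR library of embryo 1 was the lowest by a wide gap for JUP (75.1, against 120.3 to 131 in the other LR retinas) and DCHS1 (16.03, against 25.9 to 29.9), and the highest for PCDH20 (2.18, against 1.09 to 1.39). CDH18 was at 4.22 in the Control of embryo 1 and at 2.39 to 2.69 in the other Controls.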

How the results depend on the processing

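Counts of changed genes depended on single embryos and on the filter. Leaving out 1 embryo gave 387 to 1378 higher and 301 to 1468 lower genes of all tested, and 1 to 7 higher and 3 to 7 lower of the 34 members tested. By family, leaving out 1 embryo gave 0 to 1 higher and 1 to 3 lower cadherins, 0 to 1 higher protocadherins, 0 to 3 higher giant cadherins, and 0 to 1 higher and 0 to 1 lower nectins. A mean of at least 50 left 412 higher genes in all, 2 higher and 2 lower members, and 0 lower cadherins, 0 higher and 0 lower protocadherins and 0 higher giant cadherins, since fewer genes were tested. Without a filter 7 members were higher, among them 2 cadherins, 1 claudin and 1 of the tight junction scaffolds and occludin, and 1 of the catenin family was lower. With no replicate block 2 members were higher, with 0 higher cadherins, 0 higher protocadherins and 0 lower nectins; CDH2, NECTIN3, PCDH19 and, among the low genes, DSP lost their calls, and the block changed no other call of these genes. Rescaling by trimmed means left 0 higher cadherins, the cause of which was not tested.

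None of the 10 called members changed sign: of 124 values under the alternatives 105 kept the call and 19 missed the threshold. Of the 24 members that did not pass, some near 0 changed sign. Quantile normalisation gave log2 changes of -0.054 for CDH20, 0.006 for CTNNB1 and 0.034 for TJP1, and trimmed means -0.003 for CTNND2. Leaving out 1 embryo gave ranges that crossed 0 for CDH20 (-0.087 to 0.220), CDH3 (-0.038 to 0.273), CTNNA2 (-0.012 to 0.064), CTNND2 (-0.054 to 0.059), DCHS1 (-0.006 to 0.298), FAT4 (-0.070 to 0.262), PCDH7 (-0.104 to 0.081), PCDH9 (-0.093 to 0.075), TJP1 (-0.039 to 0.005) and TJP3 (-0.272 to 0.144) and, in the fit without a filter, for PCDH20 (-0.059 to 0.070).

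Genes near the step of 1 read, such as CLDN1 in Control, are limited by depth.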
